A study of Homo sapiens with 4 samples.

Results

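The 10 genes described here act in or on insulin and insulin-like growth factor signalling. They are the receptors INSR, IGF1R and IGF2R, the adaptors IRS1, IRS2 and GRB10, the PI3-kinase inhibitor PIK3IP1, and the transcription factors FOXO1, FOXO3 and FOXO4. Not all of them pass the signal on: IGF2R clears IGF2, and GRB10 and PIK3IP1 dampen the signal. The 10 genes were chosen by symbol, and all 10 were found among the 57820 genes of the expression table. RNA was sequenced from 786-0 cells, an established human renal carcinoma line, carrying a non-targeting short hairpin RNA (shNT, 2 libraries) or a hairpin against GLUD1, the mitochondrial glutamate dehydrogenase (shGLUD1, 2 libraries). Cells of both groups were kept in DMEM with fetal bovine serum and were starved of amino acids for 12 h, so the hairpins are compared in starved cells alone, and fed cells are not analysed here. Each hairpin is known here only by its target; whether the replicates are separate cultures is not given in the sources used here, so the p-values rest on the spread between libraries that may be technical replicates.

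Insulin and IGF bind the receptor tyrosine kinases INSR and IGF1R, which phosphorylate IRS1 and IRS2. These adaptors recruit PI3-kinase, whose lipid product activates AKT, and AKT phosphorylates the FOXO factors and keeps them out of the nucleus. When the signal is low, FOXO factors enter the nucleus and switch on genes of cell cycle arrest, antioxidant defence and catabolism, and INSR and IRS2 are themselves known as FOXO-responsive genes in several tissues. Amino acids enter the same network through mTORC1, which feeds back on the IRS adaptors. Control of AKT and FOXO acts largely on proteins, which RNA levels do not measure.

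The FOXO genes are paralogues whose DNA-binding forkhead domain is strongly conserved, and FOXO3 has a near-identical processed copy, FOXO3B. Their coding sequences are shown because they bear on how far short reads can be told apart. The 60 coding bases most alike in FOXO1, FOXO3 and FOXO4 without gaps are bases 544 to 603 of FOXO3, 553 to 612 of FOXO1 and 376 to 435 of FOXO4, counted from the first base of the start codon in GENCODE release 29 (GRCh38), with the aligned bases of FOXO3B beneath. Capitals mark bases that differ from FOXO3.
FOXO3: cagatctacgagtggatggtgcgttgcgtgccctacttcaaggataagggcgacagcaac
FOXO1: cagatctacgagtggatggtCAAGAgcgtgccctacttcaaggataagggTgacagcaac
FOXO4: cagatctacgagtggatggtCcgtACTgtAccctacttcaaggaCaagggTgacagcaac
FOXO3B: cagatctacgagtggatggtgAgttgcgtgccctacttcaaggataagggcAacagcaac
In this stretch FOXO1 differed from FOXO3 at 6 bases, FOXO4 at 7 and FOXO3B at 2. Over the 1928 aligned positions of FOXO3B, 99.1% were identical to FOXO3, and 29.2% of all 50-base windows of the FOXO3 transcript also occurred exactly in transcripts of other genes. For the other 9 genes that share was between 0% and 2.52%, the highest being IRS2. Exons of PIK3IP1 and IRS2 overlap antisense genes by 36 and 115 bases. Whether counting used the strand is not given in the sources used here, so reads of these pairs may not be separated. Neither antisense gene was found in the expression table. Exons of FOXO1 overlap LINC00598 on the same strand by 269 bases, where the strand cannot tell them apart. LINC00598 was listed at 0 TPM in every library. Of the 7292 windows of the FOXO3 transcript, 1206 occurred in FOXO3B and 834 in a second gene, AC026271.3. FOXO3 values below therefore depend on how reads were divided between FOXO3 and these genes, which is also not stated.

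IGF2R, which clears IGF2 and carries lysosomal enzymes, showed the largest difference on the log2(TPM + 1) scale of the 7 members that could be tested (IRS1 and FOXO3 had larger ratios of mean TPM), and the 250 bases before its RefSeq start are shown for that reason (GRCh38.p14, chr6:159968832-159969081, plus strand). Capitals mark CACGTG, the palindromic E-box read by basic helix-loop-helix factors such as MYC and TFEB.
IGF2R: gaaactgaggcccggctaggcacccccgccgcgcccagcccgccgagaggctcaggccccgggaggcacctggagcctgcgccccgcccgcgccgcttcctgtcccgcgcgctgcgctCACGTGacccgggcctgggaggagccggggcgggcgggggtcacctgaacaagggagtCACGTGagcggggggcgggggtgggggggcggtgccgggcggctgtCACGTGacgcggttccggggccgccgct
The motif occurred 3 times before the IGF2R start, at bases -132, -74 and -28 relative to it. Among 35116 RefSeq windows of 250 bases before a start, 6.34% held at least 1 E-box and 28 windows (0.08%) held 3 or more. The cut of 3 is the count of IGF2R itself, a gene picked for its change, so that share is a description only. These shares are not matched for base composition. The IGF2R window with 50 bases after the start added had 78.7% GC and 41 CpG, against medians of 58.7% and 14 over all such windows. CACGTG itself holds a CpG. The search also covered GTAAACA, the FOXO core, in 3.42% of all promoter windows of 300 bases (the 250 bases and 50 after the start), CAAAACA, the core of the insulin response element, in 4.92%, and TGATGCAA, an ATF4 composite element core, in 0.87%, each on both strands; the E-box was in 7.26% of these windows.
All 10 genes had such a window. The FOXO core was found in FOXO4 and PIK3IP1, the insulin response core in IRS2, a further E-box in IRS1, and the ATF4 core in none of them. The matches are printed in capitals with 10 bases on either side, or up to the end of the window (IRS1).
FOXO4: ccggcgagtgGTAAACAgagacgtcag
PIK3IP1: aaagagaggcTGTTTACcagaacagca
IRS2: agtcacatgtTGTTTTGctcttcttag
IRS1: gaggctccgtCACGTGtttttctcc
These lie at chrX:71095864-71095890 (plus strand), chr22:31292456-31292482 (minus strand), chr13:109786607-109786633 (minus strand) and chr2:226799771-226799795 (minus strand), all GRCh38.p14. PIK3IP1 and IRS2 show the motif's reverse complement. No binding was measured in these cells, so the matches describe the sequence alone.

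Values were deposited as TPM (transcript abundance per length, scaled to the same total in every library), which can be compared between genes within a library but keep no read totals, so depth is unknown. GLUD1 itself was at 18.1 and 17.4 TPM in the shNT libraries, against 13.5 and 19.8 TPM in the shGLUD1 libraries, so replicate 2 of shGLUD1 stood above both controls and the label was not borne out by TPM in that library; shGLUD1 below means libraries labelled so. The median gene was 0.63 higher in shGLUD1 on the log2(TPM + 1) scale. Each result is therefore also given rescaled, with each library divided by its median ratio to the others so that the typical gene does not move; on that scale GLUD1 was lower (log2 fold change -0.83, limma adjusted p = 0.00233). Changes were also larger in longer transcripts: the median log2 fold change was 0.22 for transcripts under 2000 bases, 0.68 from 2000 to 4000, 0.92 from 4000 to 8000 and 0.94 above 8000 (rescaled -0.44, 0.03, 0.33 and 0.40). Of the markers of the labelled cell type, 5 of 7 averaged at least 1 TPM, and PAX2 and CDH6 were at or under 0.12 TPM. Mean levels in shNT and shGLUD1 were 911 and 3329 TPM for VIM, 44.1 and 64.1 TPM for KRT8, 2.55 and 14.0 TPM for CA12, 8.41 and 6.33 TPM for PAX8, and 1.71 and 0.74 TPM for KRT18. With limma VIM, KRT8 and CA12 rose and KRT18 fell on TPM; rescaled, VIM and CA12 were higher and PAX8 and KRT18 lower. The leukocyte marker PTPRC was at or under 0.01 TPM and the 4 measured endothelial markers at or under 0.26 TPM. The 5 fibroblast markers summed to 9.61 and 12.2 TPM with the shNT hairpin and to 17.6 and 17.1 TPM with the shGLUD1 hairpin. Means in shNT and shGLUD1 were 7.37 and 8.43 TPM for LUM, 2.165 and 5.045 TPM for COL1A1, and 1.235 and 3.02 TPM for PDGFRB. With limma COL1A1 and PDGFRB rose on TPM, and none of these 3 passed rescaled. DCN averaged 0.1 and 0.855 TPM, and COL3A1 was at or under 0.03 TPM. The 5 leukocyte markers summed to 1.3 and 1.68 TPM for shNT but 0.14 and 0.73 TPM for shGLUD1. CD14 made up most of the shNT sums, at 1.11 and 1.24 TPM, and was at 0.04 and 0.46 TPM for shGLUD1. Ribosomal protein genes took 31.6% and 32.1% of TPM for shNT but 23.2% and 21.2% for shGLUD1. Genes of the mitochondrial genome took 0.896% and 0.952% for shNT and 1.91% and 1.63% for shGLUD1. The part of these differences in the results was not tested.

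All 10 genes were higher in both shGLUD1 libraries than in either shNT library on TPM. That was also so for 49.9% of the 24169 genes above 0 in any library, so the count has to be read against that share. Of those 24169 genes 12524 averaged 1 TPM or more, as did 7 of the 10. Shares over the 24169 genes, here and below, are therefore not matched for level. After rescaling, 6 of the 10 (IGF2R, IRS1, FOXO1, FOXO3, FOXO4 and PIK3IP1) had every shGLUD1 library above every shNT library, against 29.3% of all genes. With limma across the 12524 genes whose mean over the libraries reached 1 TPM (adjusted p under 0.05), IGF2R, IRS1, FOXO4, FOXO3 and GRB10 rose and none fell; INSR and IGF1R did not pass, and PIK3IP1, IRS2 and FOXO1 were under the minimum. The share of all genes tested that passed as higher was 56.7%, and 7.77% passed as lower. INSR, IRS1 and FOXO3 averaged under 1 TPM in shNT and met the minimum only through shGLUD1, so the count is no support for a change of the group. Rescaled, IGF2R, IRS1 and FOXO3 remained higher and none was lower, against 23.2% and 27.9% of all genes tested. With no minimum the same 5 genes passed as higher on TPM, where 24.1% of 24169 genes did.

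**Figure D1:**
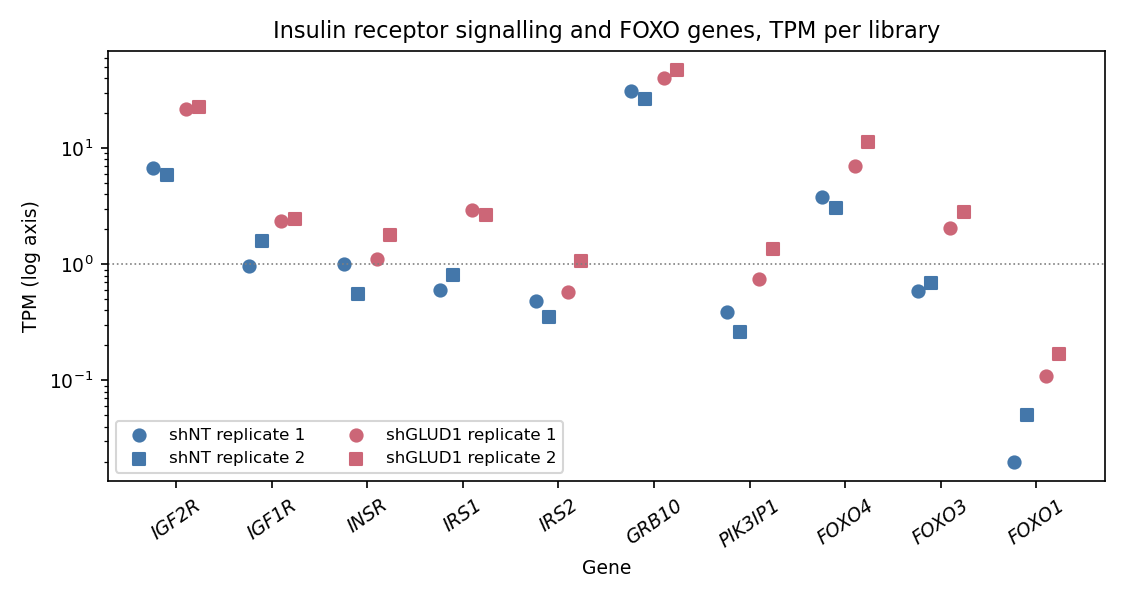
TPM (log axis) of the 10 genes in each library, blue for shNT and red for shGLUD1, circles for replicate 1 and squares for replicate 2; the dotted line is 1 TPM. GRB10 was the most abundant and FOXO1 the least, at 0.17 TPM or less, and the red points lie above the blue ones for each gene.

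Of the receptors, IGF2R rose, while INSR and IGF1R did not pass the test. IGF2R (ENSG00000197081, GRCh38 chromosome 6, 159969099 to 160113507, plus strand) was at 6.72 and 5.88 TPM in the shNT libraries, against 21.7 and 22.8 TPM in the shGLUD1 libraries. The groups were far apart next to a spread of about 1 TPM within each, with means of 6.3 ± 0.59 and 22.3 ± 0.74 TPM (SD, n = 2 libraries per group throughout), a ratio of 3.53. IGF2R rose by 1.67 on the log2 scale (SE 0.18, limma adjusted p = 2.92e-05), higher than 94.6% of all genes tested, and by 0.98 rescaled (SE 0.15, limma adjusted p = 0.00106). It was the only gene of the 10 called higher under each scaling tried, with 0.64 (limma adjusted p = 0.00878) after trends with transcript length and GC content were removed.

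IGF1R, the IGF1 receptor tyrosine kinase (ENSG00000140443, chromosome 15, 98648539 to 98964530, plus strand), was at 0.96 and 1.59 TPM with the shNT hairpin and at 2.35 and 2.44 TPM with the shGLUD1 hairpin. Both shGLUD1 libraries were above both controls, but the controls differed from each other by nearly as much as the upper control from shGLUD1. The log2 fold change was 0.59 (95% interval 0.03 to 1.16, limma adjusted p = 0.0623), near the 0.63 of the median gene, and 0.11 rescaled (-0.41 to 0.64, limma adjusted p = 0.705). INSR, the insulin receptor (ENSG00000171105, chromosome 19, 7112255 to 7294034, minus strand), was at 1.01 and 0.55 TPM in the shNT libraries, against 1.12 and 1.8 TPM in the shGLUD1 libraries. Its lower shGLUD1 library was just above the higher control. The log2 fold change was 0.47 (-0.13 to 1.06, limma adjusted p = 0.152) and 0.07 rescaled (-0.49 to 0.64, limma adjusted p = 0.82). The intervals allow changes of INSR and IGF1R relative to the median gene in either direction. The receptor genes IGF2R, IGF1R and INSR have long transcripts (14044, 12235 and 8954 bases), a class whose median change was 0.94, so IGF2R lay above that median and the other two below it. The split of INSR into its isoforms A and B is not resolved by values per gene.

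Of the adaptors, IRS1 rose and GRB10 rose on TPM alone. IRS1 (ENSG00000169047, chromosome 2, 226731317 to 226799759, minus strand), the adaptor that recruits PI3-kinase, was at 0.6 and 0.81 TPM with the shNT hairpin and at 2.96 and 2.65 TPM with the shGLUD1 hairpin. Every shGLUD1 library was over 3 times the higher control, with means of 0.705 ± 0.15 and 2.81 ± 0.22 TPM, a ratio of 3.98. On the log2(TPM + 1) scale, which understates changes at such levels, the difference was 1.16 (SE 0.25, limma adjusted p = 0.0020) and 0.72 rescaled (SE 0.22, limma adjusted p = 0.0247). The rescaled call was lost without shNT replicate 1 (0.63, limma adjusted p = 0.0895), shGLUD1 replicate 1 (0.59, 0.115) or shGLUD1 replicate 2 (0.83, 0.053), each with its adjusted p. It was also lost with no minimum (0.72, limma adjusted p = 0.089), and IRS1 did not pass after quantile normalization (0.53, limma adjusted p = 0.0765) or with length and GC trends removed (0.37, limma adjusted p = 0.17).

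IRS2 (ENSG00000185950, chromosome 13, 109752698 to 109786568, minus strand), the second broadly expressed IRS adaptor, was at 0.48 and 0.35 TPM in the shNT libraries, against 0.58 and 1.06 TPM in the shGLUD1 libraries. The groups did not overlap on TPM, but the 2 shGLUD1 libraries differed from each other by more than the lower one from the controls. With no minimum on low values the log2 fold change was 0.35 (-0.17 to 0.87, limma adjusted p = 0.26) and 0.07 rescaled (-0.36 to 0.49, limma adjusted p = 0.797). GRB10 (ENSG00000106070, chromosome 7, 50590063 to 50793462, minus strand), an adaptor that binds INSR and IGF1R and dampens their signal and is itself phosphorylated by mTORC1, was at 31.0 and 26.5 TPM with the shNT hairpin and at 40.4 and 46.8 TPM with the shGLUD1 hairpin. It was the most abundant of the 10 in every library. GRB10 rose on TPM (0.59, SE 0.14, limma adjusted p = 0.00438), which is less than the median gene, and the call was lost without shNT replicate 2 (0.48, limma adjusted p = 0.0604). Rescaled, both shGLUD1 libraries were below both controls (33.1 and 33.2 against 40.2 and 34.2), with a log2 fold change of -0.16 (-0.45 to 0.13, limma adjusted p = 0.323). With length and GC trends removed as well it fell (-0.41, SE 0.10, limma adjusted p = 0.0158).

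PIK3IP1 (ENSG00000100100, chromosome 22, 31281593 to 31292534, minus strand), a membrane protein that binds and inhibits PI3-kinase, was at 0.39 and 0.26 TPM in the shNT libraries, against 0.74 and 1.36 TPM in the shGLUD1 libraries. Both shGLUD1 libraries were above the controls, 1 of them by less than the distance between the shGLUD1 libraries. The ratio of means was 3.23, and with no minimum the log2 fold change was 0.61 (0.04 to 1.18, limma adjusted p = 0.104) and 0.33 rescaled (-0.13 to 0.78, limma adjusted p = 0.272).

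Among the FOXO factors, FOXO4 was the most abundant and FOXO1 was barely recorded. FOXO4 (ENSG00000184481, chromosome X, 71096197 to 71103535, plus strand) was at 3.82 and 3.07 TPM with the shNT hairpin and at 7.06 and 11.3 TPM with the shGLUD1 hairpin. The shGLUD1 libraries were well above the controls but differed from each other by over 4 TPM. FOXO4 rose on TPM (1.17, SE 0.25, limma adjusted p = 0.00222), and its rescaled change of 0.53 (0.06 to 0.99) did not pass (limma adjusted p = 0.058). The rescaled value was 0.65 without shNT replicate 1 and 0.75 without shGLUD1 replicate 1. It was 0.38 without shNT replicate 2 and 0.35 without shGLUD1 replicate 2. FOXO4 also did not pass rescaled with no minimum (0.53, limma adjusted p = 0.165) or after quantile normalization (0.40, limma adjusted p = 0.148). Nor did it with length and GC trends removed (0.52, limma adjusted p = 0.0709). FOXO3 (ENSG00000118689, chromosome 6, 108559835 to 108684774, plus strand) was at 0.59 and 0.69 TPM in the shNT libraries, against 2.07 and 2.8 TPM in the shGLUD1 libraries. The controls were close together and each shGLUD1 library was at least 3 times their mean of 0.64 ± 0.071 TPM; the shGLUD1 mean was 2.44 ± 0.52 TPM. FOXO3 rose by 1.06 (SE 0.25, limma adjusted p = 0.00387) and by 0.64 rescaled (SE 0.21, limma adjusted p = 0.0356). The rescaled call was lost with any of the 4 libraries left out, the values staying between 0.55 and 0.70 (limma adjusted p from 0.0682 to 0.14), and with no minimum (0.64, limma adjusted p = 0.0898). FOXO3 also did not pass after quantile normalization (0.44, limma adjusted p = 0.106) or with length and GC trends removed (0.30, limma adjusted p = 0.204).

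The copy FOXO3B was listed at 0.03, 0.3, 0.85 and 1.01 TPM in the order shNT replicates 1 and 2, shGLUD1 replicates 1 and 2. It was higher in shGLUD1, as FOXO3 was, and how many of its reads came from FOXO3 was not tested. FOXO1 (ENSG00000150907, chromosome 13, 40469953 to 40666597, minus strand) was at 0.02 and 0.05 TPM with the shNT hairpin and at 0.11 and 0.17 TPM with the shGLUD1 hairpin. At these levels the 2 decimals of the table are themselves a coarse step, and with no minimum the log2 fold change of 0.14 did not pass (-0.02 to 0.29, limma adjusted p = 0.153). FOXO6, the brain-enriched FOXO gene, was at or under 0.03 TPM.

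**Figure D2:**
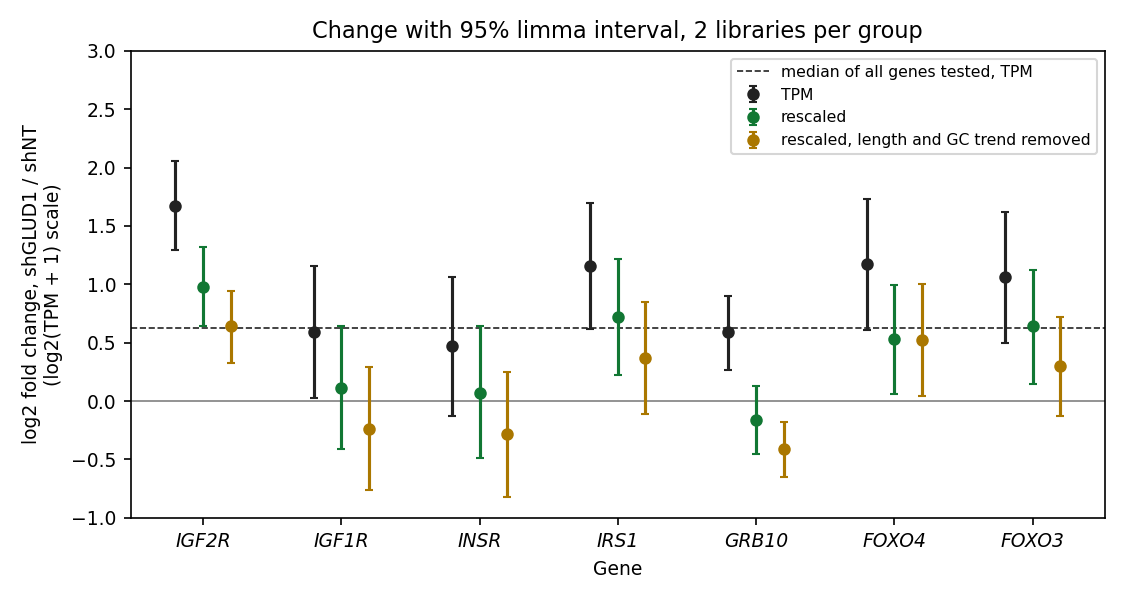
Log2 fold change of the 7 genes tested (points) with 95% limma intervals (bars), on TPM, rescaled, and rescaled with trends in transcript length and GC content removed; the dashed line at 0.63 is the median of all genes tested on TPM. The intervals, which are not adjusted for the number of genes, lie above 0 on each scale for IGF2R and FOXO4 and on the first 2 for IRS1 and FOXO3, and GRB10 crosses from 0.59 to -0.41.

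The order of levels was the same at the top in both groups and shifted in the middle. In shNT, GRB10 was highest, then IGF2R, FOXO4 and IGF1R, with no overlap between neighbours, followed by INSR, IRS1 and FOXO3, whose libraries overlapped from one to the next (and INSR with IGF1R). IRS2 and PIK3IP1 overlapped below them, and FOXO1 was lowest. In shGLUD1 the first 3 were again GRB10, IGF2R and FOXO4. IRS1 followed, with libraries that overlapped those of FOXO3 but lay above those of IGF1R. FOXO3 overlapped IGF1R, and all 3 were above INSR. PIK3IP1 and IRS2 overlapped with the genes above them, and FOXO1 was again lowest.

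Ratios of TPM between 2 genes in a library do not depend on how libraries are scaled, and 7 pairs were compared. The IGF2R to IGF1R ratio of TPM was 7.0 and 3.7 in shNT and 9.25 and 9.34 in shGLUD1. IRS1 stood at 1.25 and 2.31 times IRS2 in shNT and 5.1 and 2.5 times in shGLUD1. Both ratios were higher in shGLUD1 with no overlap, though for IRS1 the lower shGLUD1 library was close to the higher control. PIK3IP1 stood at 1.15 and 0.812 times PIK3CA, the catalytic PI3-kinase subunit that it inhibits, in shNT and at 0.318 and 0.604 times in shGLUD1. The ratio was lower in both shGLUD1 libraries than in either control. PIK3CA itself went from 0.34 and 0.32 TPM to 2.33 and 2.25 TPM and rose (log2 fold change 1.31, limma adjusted p = 0.000932, and 0.95 rescaled). It averaged 0.33 TPM in shNT and met the minimum only through shGLUD1. With no minimum the limma adjusted p was 0.0164, and 0.0307 rescaled.

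The INSR to IGF1R ratio was 1.05 and 0.346 in shNT and 0.477 and 0.738 in shGLUD1, and the groups overlapped. FOXO1 stood at 0.0339 and 0.0725 times FOXO3 in shNT and 0.0531 and 0.0607 times in shGLUD1, also overlapping. The FOXO4 to FOXO3 ratio was 6.47 and 4.45 in shNT and 3.41 and 4.05 in shGLUD1, and GRB10 stood at 30.7 and 48.2 times INSR in shNT and 36.0 and 26.0 times in shGLUD1. FOXO4/FOXO3 was lower in both shGLUD1 libraries, while GRB10/INSR overlapped between groups. On log2(TPM + 1), unlike for the plain ratios of TPM, the values do depend on how libraries are scaled, most at low levels. On that scale the shGLUD1 minus shNT difference was 1.08 for IGF2R/IGF1R, 0.81 for IRS1/IRS2 and -0.69 for PIK3IP1/PIK3CA. Each had a two-sided exact permutation p of 0.333, the smallest that 2 against 2 libraries can give. The same difference was -0.13 for INSR/IGF1R (exact p = 1.0), 0.11 for FOXO4/FOXO3 and 0.12 for GRB10/INSR (exact p = 0.667 each), so none of the 7 could pass, and adjusting over them leaves that unchanged. With 0.1 TPM added in place of 1 TPM the values were -0.40 for FOXO4/FOXO3 and -0.24 for GRB10/INSR, so their sign depends on that choice. For FOXO1/FOXO3 the difference was -0.92 (exact p = 0.333) and was -0.94 with 0.1 TPM added, while the ratios of TPM themselves overlapped between groups. Both added constants are large next to FOXO1 at 0.02 to 0.17 TPM, so these differences largely follow FOXO3. Their likeness is therefore no sign of a lower FOXO1/FOXO3 ratio in shGLUD1.

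**Figure D3:**
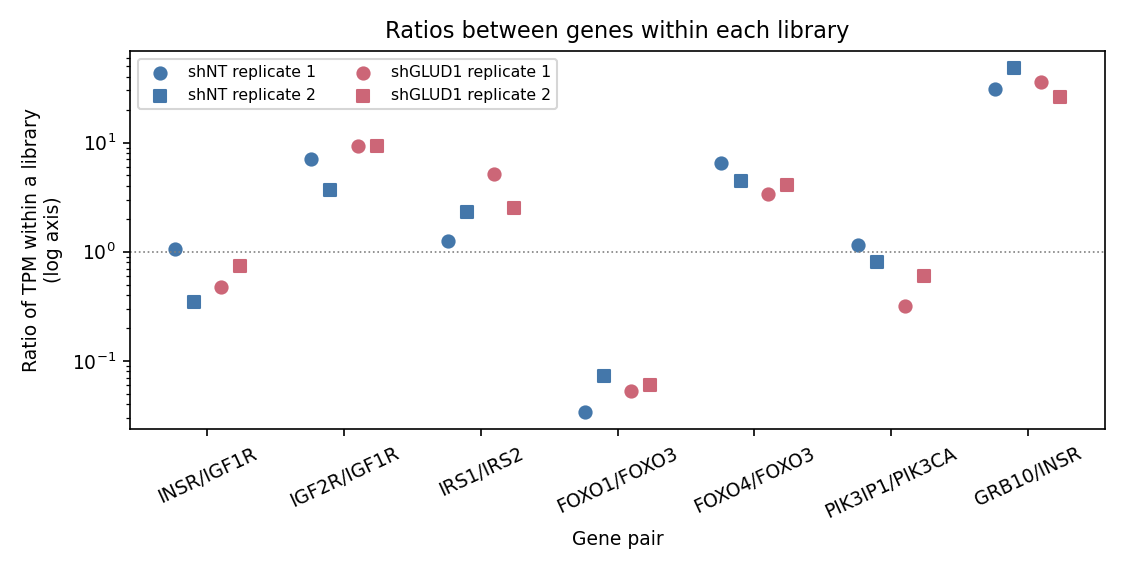
Ratio of TPM between 2 genes within each library (log axis), blue for shNT and red for shGLUD1, circles for replicate 1 and squares for replicate 2; the dotted line marks equal levels. IGF2R/IGF1R and IRS1/IRS2 are higher and PIK3IP1/PIK3CA and FOXO4/FOXO3 lower in the shGLUD1 libraries, while INSR/IGF1R, FOXO1/FOXO3 and GRB10/INSR overlap.

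The rest of the pathway was described with 46 other genes of insulin and PI3-kinase signalling, 33 of which met the minimum. On TPM 26 rose (78.8%, against 56.7% of all genes tested) and 1 fell (3.03%, against 7.77%), with a median log2 fold change of 0.84 against 0.63 for all genes. Rescaled, 11 were higher (33.3%, against 23.2%), 4 lower (12.1%, against 27.9%) and 18 did not pass, with a median of 0.28. Of the 33, 6 averaged under 1 TPM in shNT, and 5 of these are among the 26; with no minimum 25 of 44 rose. The largest increases on log2(TPM + 1) were of YWHAZ, a 14-3-3 protein that holds phosphorylated FOXO in the cytoplasm, PTPN1, the phosphatase that dephosphorylates the insulin receptor, and MTOR and RPTOR, kinase and scaffold of mTORC1. YWHAZ was at 51.8 and 56.1 TPM in the shNT libraries, against 205 and 300.05 TPM in the shGLUD1 libraries (2.18, limma adjusted p = 3.65e-06; rescaled 1.43). PTPN1 was at 6.1 and 5.55 TPM with the shNT hairpin and at 19.4 and 23.9 TPM with the shGLUD1 hairpin (1.72, limma adjusted p = 3.51e-05; rescaled 1.03). By ratio of mean TPM other tested genes of the list stood higher, such as PIK3CA at 6.94 against 4.68 for YWHAZ. MTOR and RPTOR rose by 1.46 and 1.38 (rescaled 0.81 and 0.72, limma adjusted p = 0.00404 and 0.0065).

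MLST8, a further subunit of both mTOR complexes, was the 1 gene of the list that fell, from 57.2 and 57.3 TPM to 40.0 and 38.6 TPM (-0.53, limma adjusted p = 0.00275; rescaled -1.28). The mTOR complex genes thus moved in both directions. The kinase genes AKT1 and AKT2 rose on TPM by about the median gene (0.60 and 0.58) and did not pass after rescaling (-0.15 and -0.17, limma adjusted p = 0.294 and 0.305). The ligand gene IGF1 was listed at 0 in every library and IGF2 at 0.07 TPM or less. AKT1, AKT2, PIK3CA and the ligands were singled out after their values were seen.

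Of 30 genes widely described as FOXO targets, 22 met the minimum. On TPM 16 rose (72.7%, against 56.7% of all genes tested), none fell (against 7.77%) and 6 did not pass, with a median of 0.85 against 0.63. Rescaled, 8 were higher (36.4%, against 23.2%) and 5 lower (22.7%, against 27.9%), with a median of 0.21. TXNIP, RBL2 and SESN1 averaged under 1 TPM in shNT and met the minimum only through shGLUD1; with no minimum 11 of 29 rose, where 24.1% of all genes did. The largest increase in the list was of TXNIP, which restrains glucose uptake, from 0.57 and 0.96 TPM to 21.1 and 27.9 TPM (3.85, limma adjusted p = 1.58e-06; rescaled 3.30). CAT, the peroxide-degrading catalase, went from 2.77 and 3.78 TPM to 13.6 and 18.2 TPM (1.98; rescaled 1.32), BCL6, a transcriptional repressor, rose by 1.59 (rescaled 1.04), and RBL2, the pocket protein p130, by 1.56 (rescaled 1.05), all 3 with limma adjusted p under 0.05 on both scales. The 5 lower after rescaling were GABARAPL1 (-0.83), GADD45A (-0.62), SOD2 (-0.51), IGFBP1 (-0.47) and FBXO32 (-0.44), named after their values were seen; on TPM these 5 lay between -0.11 and 0.31 and did not pass. The targets thus did not share a direction relative to the median gene. RICTOR is in this list and in the pathway list, and many FOXO targets also answer to other factors.

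**Figure D4:**
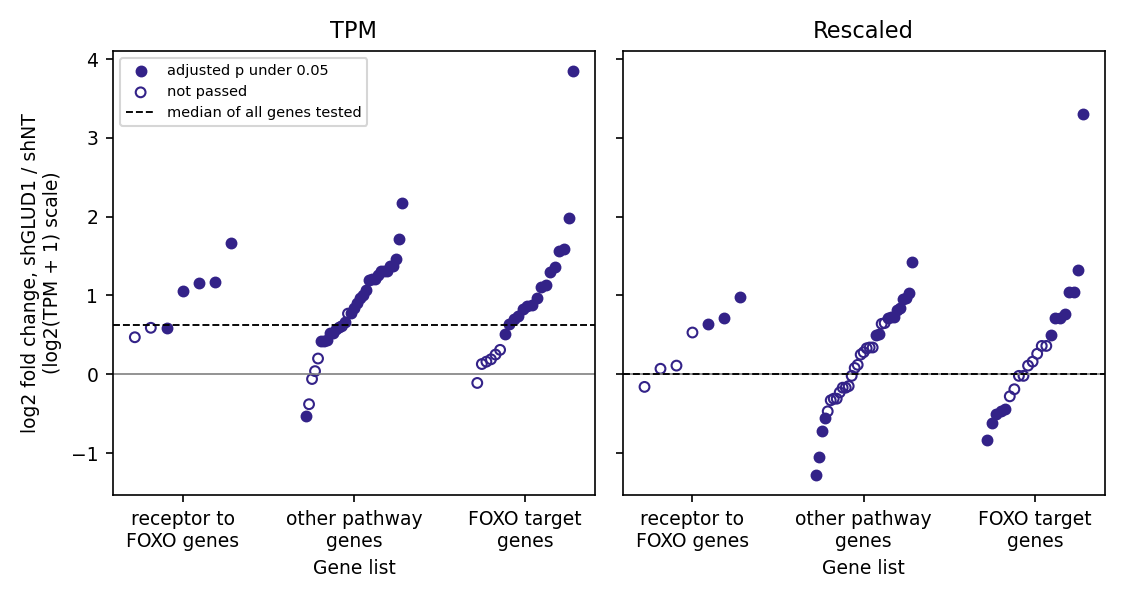
Log2 fold change on TPM (left) and rescaled (right) of the tested genes of the receptor-to-FOXO group (7), the other pathway genes (33) and the FOXO targets (22); filled points have a limma adjusted p under 0.05 and the dashed line is the median of all genes tested. Most points lie above 0 on the left, and they spread to both sides on the right, with TXNIP highest and MLST8 lowest.

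Genes with the profile most like that of IGF2R over the 4 libraries, among 6721 genes with a mean of 5 TPM or more, were MGEA5, which encodes the O-GlcNAc hydrolase, YPEL3 and the histone chaperone gene ASF1B. Their root mean square distances to IGF2R on centred log2(TPM + 1) were 0.0172, 0.0252 and 0.0317, and their log2 fold changes 1.69, 1.69 and 1.61. The profile of INSR, which had the smallest difference on log2(TPM + 1) among the 7 members tested, was nearest to those of METTL4, ETS2 and NQO2, at distances of 0.0294, 0.0325 and 0.0326. Likeness over 4 libraries in 2 groups is a description only.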

How the data were processed

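The authors deposited 1 table of TPM values with 1 column per library, and each of the 4 columns summed to 1000000 with 2 decimals, so values were scaled within libraries only. Bowtie 0.12.2 is named in the submitters' processing notes, beside 2 genome builds (hg38 and mm8) whose roles are not stated. The quantifier is not given in the sources used here. Libraries were made with the TruSeq V2 RNA-Seq kit, per the labels. Without read totals there is no counting interval for a TPM value.

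The log2(TPM + 1) values were fitted with limma 3.58.1 in R 4.3.3 (variance trend, group as the only term, two-sided, Benjamini-Hochberg over the 12524 genes averaging 1 TPM or more, threshold 0.05). The fit was also run on simulated data with few changed genes, raised or lowered alike. Those data lack the shift of the median gene seen here, so that run cannot judge the calls under such a shift. Median-ratio rescaling used genes with the same minimum and no 0. Gene positions, transcript lengths (longest coding transcript) and GC content came from GENCODE release 29, with a length for 97.9% of the genes tested, and promoters from RefSeq GRCh38.p14. Coordinates are those of the references, since the build of the table is not stated. Alternatives were the pseudocount, the minimum, quantile normalization, no trend, a replicate block, each library left out, protein-coding genes only, and removal of length and GC trends (loess per library, span 0.3). Added after seeing the data were combinations of rescaling with no minimum, the block and each library left out. Biopython 1.88, pandas 2.3.3, scipy 1.17.1 and matplotlib 3.10.9 were used.

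The 10 genes, the lists and the naming rule (the 10 genes and GLUD1, up to 4 rising and 4 falling genes of each list with the largest change, and the 3 genes nearest in profile) were chosen with earlier results of these data known. No pattern of those results is independent support.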

Additional observations from a re-analysis of the deposited data

How the results depend on the processing

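Depth is unknown, and with 2 libraries per group a fit without 1 library assumes that the lone library varies like the others. IGF2R kept its direction and its call under every alternative run. On TPM, 5 of the 10 genes rose and none fell; the count was 4 to 5 with each library left out. It was 3 at a mean of at least 5 TPM (fewer genes tested), 3 after median-ratio rescaling and 1 after quantile normalization. Once trends with length and GC content were removed it was 1, and 1 was lower. In that fit 2887 of all 12258 genes were higher and 2916 lower, and after rescaling alone 23.2% and 27.9% were. For the other alternatives in this section the share of all genes called is not given, so those counts cannot be read against it. The rescaled count of 3 became 1 with no minimum, also at a pseudocount of 0.1 TPM, and 1 to 2 with each library left out (1 without shGLUD1 replicate 2). Rising and falling pathway genes (26 and 1) numbered 11 and 4 rescaled, 13 and 2 with quantile normalization, and 7 and 6 without length and GC trends. FOXO targets (16 and 0) numbered 8 and 5, 8 and 2, and 6 and 3 in the same order, and 9 rose at a mean of at least 5 TPM. GLUD1 was at -0.11 on TPM (limma adjusted p = 0.631), and on TPM it lay between -0.37 and 0.15 with each library left out. It was at -0.83 rescaled, -0.75 after quantile normalization and -1.02 with trends removed. For GLUD1 no values with a library left out are given on those 3 scales.

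Signs turned for INSR (-0.13 after quantile normalization, -0.28 with trends removed), IGF1R (-0.05 and -0.24) and GRB10 (-0.16 rescaled, -0.41 with trends removed). Rescaled values with a library left out ran from -0.16 to 0.29 for INSR, which fell under the minimum without shGLUD1 replicate 2, and from -0.13 to 0.33 for IGF1R. The cause was not tested. IGF1R passed with no variance trend (0.59, limma adjusted p = 0.0353) and for protein-coding genes only (0.60, 0.0383).

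Same-numbered libraries deviated together by a correlation of 0.0393 across genes, a value that both numbers share by construction with 2 libraries per group. Whether same-numbered libraries shared a culture or a batch cannot be told from it. With the replicate block 6 of the genes rose, IGF1R among them (0.59, limma adjusted p = 0.0455).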
